A study of Mus musculus with 4 samples.

Results

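The comparison described here asked whether the effect of losing *Ets2* in mammary fibroblasts depended on an oncogene in the neighbouring epithelium. For each gene the *Ets2* effect, *Ets2* null minus *Ets2* present, was taken in fibroblasts from *ErbB2* mice and in fibroblasts from normal mice, and the second was subtracted from the first. This difference of differences is on the log2 scale. It is negative where loss of *Ets2* went with lower expression in *ErbB2* fibroblasts relative to normal fibroblasts, and positive for the opposite. The same number is also the oncogene effect without *Ets2* minus the oncogene effect with *Ets2*, so both readings describe the same 4 arrays. The members were the probe sets (groups of short probes that read 1 transcript) with exactly 1 gene symbol and a log2 value of 6 or more on at least 1 array. There were 18359 such probe sets of 34958 with 1 symbol and 45101 in all, and they covered 10941 of 18194 singly named genes. All 4 arrays were at log2 6 or more for 9818 of these genes on the probe set used. Each gene was represented by its brightest member probe set, judged by the mean of the 4 arrays. The singly named probe sets just inside the limit had highest values of 6.0003 and 6.0007, and those just outside 5.9996 and 5.9995.

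The arrays held RNA from second-passage cultures of mammary fibroblasts of FVB/N mice aged 16 weeks, with 1 array for each genotype. Normal *Ets2* present fibroblasts were Ets2db/loxP, normal *Ets2* null fibroblasts were FspCre;Ets2db/loxP, *ErbB2* *Ets2* present fibroblasts were ErbB2;Ets2db/loxP and *ErbB2* *Ets2* null fibroblasts were ErbB2;Fsp-cre;Ets2db/loxP. Every group, controls included, carried 1 db allele of *Ets2* and 1 loxP allele. The *Ets2* null arrays were also the arrays with Cre, driven by the *Fsp* (*S100a4*) promoter, and the *ErbB2* oncogene was expressed in the epithelium from the mammary *MMTV* promoter. Per the study's text, *ErbB2* mice were taken before tumors could be felt. Since each genotype had a single array, the spread between replicates is unknown, no test was run, and a difference between genotypes cannot be told apart from a difference between the cultures that stood for them. All results are sizes on these arrays.

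Ets2 is a transcription factor of the ETS family that binds DNA elements with a GGAA core and is activated when the Ras and ERK kinases phosphorylate it. ETS factors act on many promoters together with AP-1, a dimer of Fos and Jun family proteins, and genes of secreted proteases are among the best known targets of the pair. Fibroblasts beside a tumor receive growth factors and cytokines from the epithelium, remodel the extracellular matrix and secrete signals for blood vessels and immune cells.

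*Ets2* itself was at log2 8.14, 8.35, 8.34 and 8.31 on its brightest probe set, in the order normal *Ets2* present, normal *Ets2* null, *ErbB2* *Ets2* present and *ErbB2* *Ets2* null. All values below are given in this order. *Ets2* null minus *Ets2* present was 0.21 in normal and -0.02 in *ErbB2* fibroblasts, so the null arrays were not clearly lower. Since no source used here places the probes relative to the deleted part, these values do not check the labels. The fibroblast markers *Col1a1*, *Col1a2*, *Vim* and *S100a4* were above log2 13 on every array. The array medians lay between 5.51 and 5.54. Bacterial RNAs added to each hybridisation (bioB, bioC and bioD, 14 probe sets) had medians of 10.41, 10.28, 9.84 and 10.53 and a median difference of differences of 0.76, which set the *ErbB2* *Ets2* present array below the others. The 3 probe sets of 18S ribosomal RNA lay between 0.72 and 1.21. Poly-A control RNAs (24 probe sets) had a median of -0.01, and *Gapdh* and beta-actin controls medians of 0.10 and -0.23. These shifts are smaller than the size of 2 used to count genes, and their part in differences near 1 was not tested.

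Most genes had nearly the same *Ets2* effect in both kinds of fibroblast, and the genes that did not were mostly lower in the *ErbB2* *Ets2* null array. Over the 10941 genes the median difference of differences was 0.02, the robust SD 0.35, and 78.7% lay within 0.5 of 0. A gene was counted where the difference of differences was over 2 in size, a 4-fold change in the *Ets2* effect. There were 130 counted genes, 24 higher (0.219% of all) and 106 lower (0.969%). At a size of 1, a 2-fold change, 170 genes were higher (1.55%) and 531 lower (4.85%). All 4 arrays were at log2 6 or more for 15 of the 24 and 61 of the 106. The nearest genes inside the size of 2 were the monocyte membrane protein *Mmd* at -2.0 and the chemokine *Ccl6* at -2.01, and the nearest outside were *Hal* and *Ramp1*, both at -1.99.

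**Figure D1:**
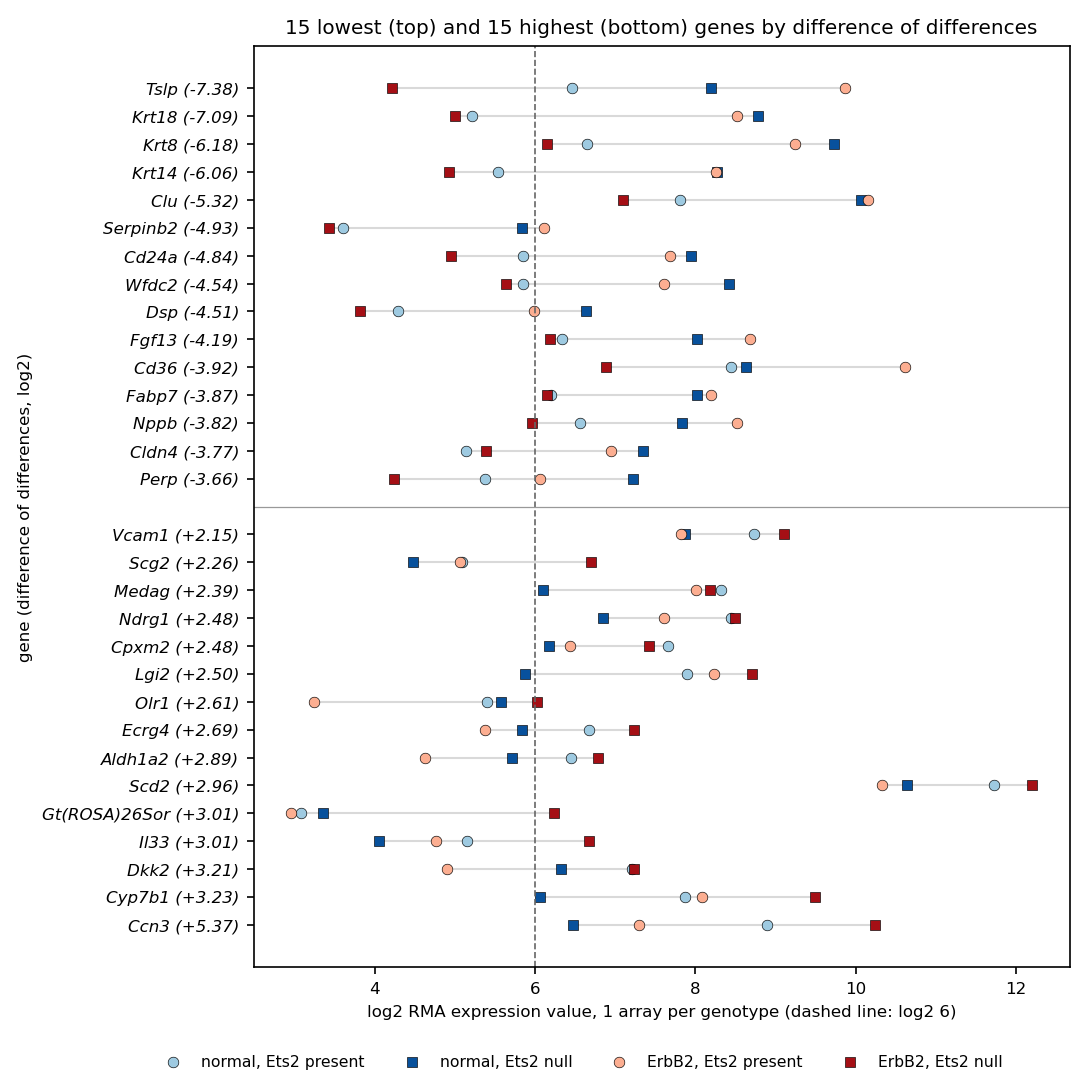
Log2 expression values (x axis) on the 4 arrays for the 15 genes with the lowest and the 15 with the highest difference of differences (y axis, value in parentheses), from 1 array per genotype. For most of the lowest genes the normal *Ets2* null and *ErbB2* *Ets2* present arrays (dark blue squares, light red circles) lie together on the right and the other arrays on the left, and *Ccn3* shows the opposite order.

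A difference of differences can come from either kind of fibroblast, and the counted genes fell into distinct classes. A comparison was taken to have moved where the *Ets2* effect in it was over 1 in size. Of the 106 lower genes, 52 moved in *ErbB2* fibroblasts alone, 38 moved in opposite directions in the 2 comparisons, 15 moved in normal fibroblasts alone, and *Mmp3* moved in the same direction in both. Of the 24 higher genes, 10 moved in *ErbB2* fibroblasts alone, 8 in normal fibroblasts alone and 6 in opposite directions. The *ErbB2* *Ets2* null array was the lowest of the 4 for 93 of the 106 lower genes and the highest for 20 of the 24 higher genes. Such positions follow in part from how the genes were counted.

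With 1 array per genotype, an unusual array gives a difference of differences by itself. A single array stood apart, over 1 from each of the others, which lay within 1 of each other, for 34 of the 106 lower genes. It was the *ErbB2* *Ets2* present array, on the high side, for 14 genes, the *ErbB2* *Ets2* null array, on the low side, for 11, and the normal *Ets2* null array, on the high side, for 9. For the other 72 lower genes and for 17 of the 24 higher genes no single array stood apart.

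Other probe sets of the same gene gave the same direction for every counted gene that had them. Of the 106 lower genes, 30 had another member probe set, and in all 30 every such probe set was below 0, in 26 of them below -1 and in 17 below -2. Of the 24 higher genes, 13 had another member probe set, all 13 were above 0 on every one, 12 above 1 and 7 above 2. Over all 4624 genes with several member probe sets, the robust SD of the gap between a probe set and the brightest one was 0.25. Probe sets share the RNA of their array, so this spread holds probe error and not the spread between animals or cultures. A further 31 genes passed 2 in size on a dimmer probe set alone. *Epcam*, an adhesion molecule of epithelial cells, was one of these, at 5.38, 7.83, 8.48 and 5.63 on the dimmer probe set (-5.31) and 0.10 on the brightest one.

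**Figure D2:**
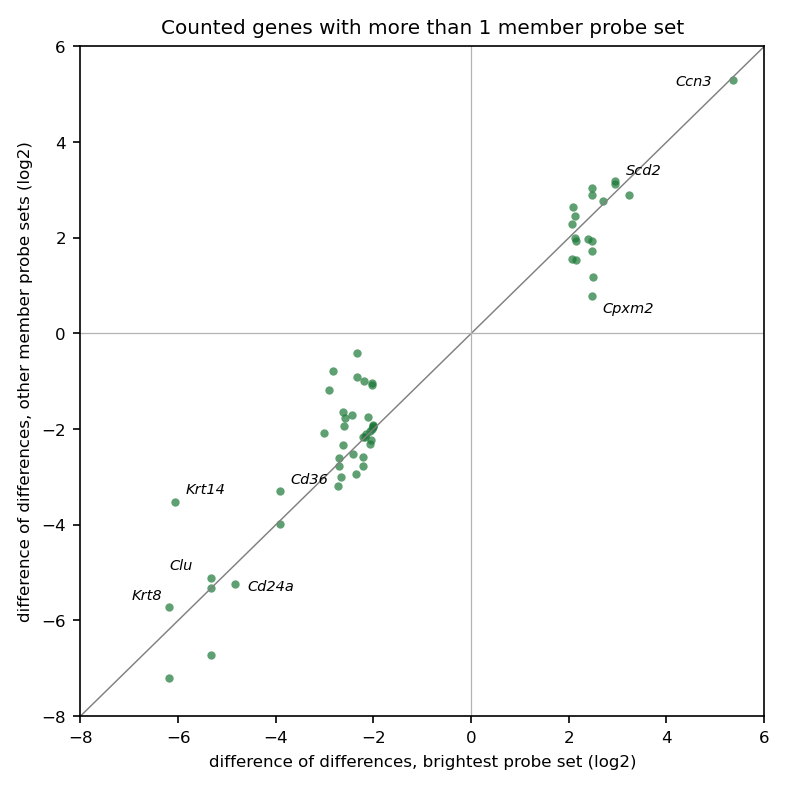
Difference of differences on the brightest probe set (x axis, log2) and on each other member probe set (y axis, log2) of the 43 counted genes with more than 1 member probe set. Points on the diagonal line have equal values, and every point lies in the lower left or upper right corner region.

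Genes were grouped in 39 lists with measured members. The lists with the lowest medians were basal epithelial markers (-2.14), acute-phase and antimicrobial proteins (-1.60), macrophage and myeloid markers (-1.44), luminal epithelial markers (-1.29) and retinoid genes (-1.23). This order depends on the level filter, since with no filter the medians were -0.79, -0.60, -1.39, -0.51 and -0.19, and over genes with all 4 arrays at log2 6 they were -0.74, -1.28, -1.42, -1.29 and -0.71, the myeloid markers lowest both times among these 5 lists. The highest were fatty acid synthesis (1.02) and cholesterol synthesis (0.77), against 0.02 over all genes. Of the 106 lower genes, 22 stood on a list of markers of cells other than fibroblasts, and none of the 24 higher genes did. Of the 10941 genes, these lists held 41 myeloid, 17 luminal, 14 basal, 18 skeletal muscle and 16 smooth muscle genes. They also held 18 endothelial, 5 mast cell and 6 lymphocyte genes. So few of any 24 genes would stand on them, and none among the higher genes is not read as a difference. Without these markers 84 lower and 24 higher genes were left. In cultures, fewer cells of a type and less RNA per cell cannot be told apart.

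**Figure D3:**
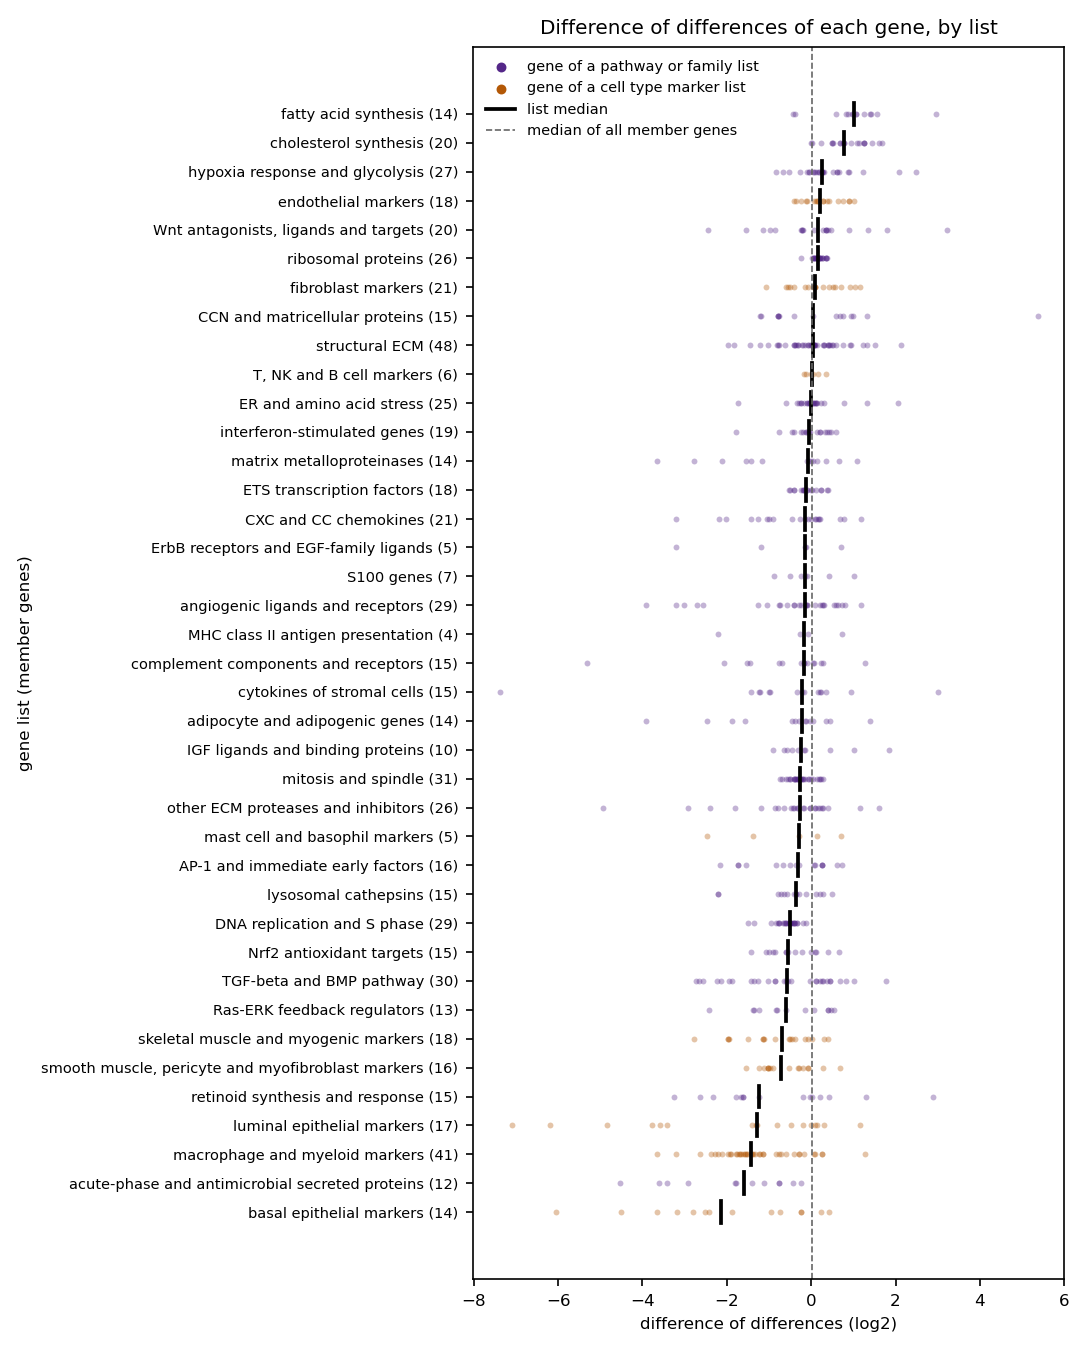
Difference of differences of every member gene (points, log2, x axis) by gene list (y axis, number of member genes in parentheses), with the list median as a black bar and the median of all member genes as a dashed line at 0.02. Fatty acid and cholesterol synthesis lie at the upper end, and basal epithelial markers, at -2.14, at the lower end.

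The keratins *Krt8*, *Krt18* and *Krt14* and the junction genes named here for their size were higher without *Ets2* in normal fibroblasts and lower without it in *ErbB2* fibroblasts. Not all epithelial markers did so. Of 17 luminal markers, 4 were lower without *Ets2* in normal and 14 in *ErbB2* fibroblasts. The 2 probe sets of *Epcam* disagreed. The brightest differed by -0.31 and -0.21, lower in both, while the dimmer one went the way of the keratins, at 2.45 and -2.85. *Krt8*, a keratin of simple epithelia, was at 6.65, 9.73, 9.25 and 6.15, a difference of differences of -6.18 or a 72.6-fold change in the *Ets2* effect. Its partner *Krt18* was at 5.21, 8.78, 8.52 and 5.01 (-7.09), and *Krt14*, a keratin of basal epithelial cells, at 5.54, 8.27, 8.26 and 4.93 (-6.06). The normal *Ets2* null and *ErbB2* *Ets2* present arrays were both high and the other arrays both low, so the 2 low arrays differed in genotype at both loci. *Cd24a*, a surface glycoprotein of epithelial cells, was at 5.85, 7.95, 7.69 and 4.95 (-4.84), and the desmosome protein *Dsp* at 4.30, 6.64, 5.99 and 3.82 (-4.51). The tight junction protein *Cldn4* was at 5.14, 7.35, 6.95 and 5.39 (-3.77), and *Perp*, a membrane protein of desmosomes, at 5.38, 7.22, 6.06 and 4.24 (-3.66). Nothing shows that a value below log2 6 is above background, so differences that end there are not exact. Of the luminal markers, 9 (52.9%) were below -1 and 1 was above 1, and of 14 basal markers, 8 (57.1%) were below -1 and none above 1, beside 4.85% and 1.55% of all genes. Over the 7 basal markers with all 4 arrays at log2 6 or more the median was -0.74. The epithelial markers held 13 of the 106 lower genes, of which 9 moved in opposite directions. The epithelial regulators *Elf3* and *Grhl2* were at -0.01 and 0.14. Both had levels near log2 6, so these values cannot show whether such regulators followed the keratins.

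Several other genes with low values, named here for their size, had the same order of the arrays. *Tslp*, an epithelial and stromal cytokine whose targets include dendritic cells, had the lowest difference of differences of all genes, -7.38, with values of 6.47, 8.20, 9.87 and 4.22. *Clu*, a secreted chaperone, was at 7.81, 10.07, 10.16 and 7.09 (-5.32, 40.1-fold). *Fgf13*, an intracellular fibroblast growth factor homolog, was at 6.34, 8.02, 8.69 and 6.18 (-4.19, 18.2-fold). In each of these genes the normal *Ets2* null and *ErbB2* *Ets2* present arrays both lay above the other arrays. *Nppb*, a natriuretic peptide, was at 6.56, 7.83, 8.52 and 5.96 (-3.82). *Fabp7*, a fatty acid binding protein, was at 6.20, 8.02, 8.20 and 6.15 (-3.87). *Ereg*, a ligand of the EGF receptor family, was at 7.94, 9.20, 8.13 and 6.19 (-3.19, 9.15-fold), where the *ErbB2* *Ets2* present array lay near the normal *Ets2* present array. *Serpinb2*, an inhibitor of the plasminogen activator urokinase, passed log2 6 on 1 array only, at 3.60, 5.84, 6.11 and 3.43 (-4.93, and -0.11 with values below log2 6 set to 6). *Wfdc2*, a small secreted protein of epithelia, was at 5.85, 8.42, 7.61 and 5.64 (-4.54).

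Genes of TGF-beta and BMP signaling, pathways in which secreted ligands act through Smad proteins, had a median below 0, though 12 of 30 lay above 0. Their median *Ets2* effect was -0.07 in normal and -0.45 in *ErbB2* fibroblasts. Without *Ets2*, 5 genes were higher and 1 lower by over 1 in normal fibroblasts, and 4 were lower by over 1 in *ErbB2* fibroblasts. Of 30 measured genes, 11 (36.7%) were below -1 and 2 (6.67%) above 1, beside 4.85% and 1.55% of all genes, and the median was -0.58. Among ligands, *Tgfb3* was at 10.90, 11.34, 11.96 and 9.84 (-2.56, 5.90-fold) and *Tgfb2* at 8.57, 9.34, 9.32 and 7.87 (-2.22), while *Tgfb1* was at 8.98, 7.88, 8.68 and 8.27 (0.68). Follistatin, *Fst*, which binds activins, was at 8.64, 9.66, 9.70 and 8.05 (-2.67). The activin subunit *Inhba* was at -1.36. Among BMP target genes, the Id proteins, which block basic helix-loop-helix factors, all lay below -1. *Id2* was at 8.55, 9.59, 10.13 and 8.44 (-2.73, 6.63-fold), and *Id1*, *Id3* and *Id4* were at -1.43, -1.26 and -1.94. The inhibitory *Smad6* was at 9.15, 10.36, 9.94 and 9.02 (-2.13). The receptors *Tgfbr2*, *Bmpr1a* and *Bmpr2* differed little, at 0.44, 0.43 and 0.12, and *Gdf10* was highest of the list, at 6.97, 6.16, 6.87 and 7.83 (1.76). *Nog* and *Bmp4*, a BMP antagonist and a ligand, were at -1.88 and -1.03.

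Feedback regulators of the Ras and ERK pathway, whose transcription follows ERK activity, split into a lower set and a set near 0. Of 13 genes, 4 (30.8%) were below -1 and none above 1, and the median was -0.60. *Phlda1*, a pleckstrin homology domain protein, was at 9.08, 9.59, 9.67 and 7.77 (-2.41, 5.32-fold). *Dusp6*, the phosphatase of ERK, was at 8.38, 8.62, 8.64 and 7.49 (-1.39), *Ier3* at 11.14, 11.35, 11.65 and 10.50 (-1.36), and *Dusp4* at 9.46, 10.20, 9.54 and 9.05 (-1.24). For *Phlda1* and *Dusp6* the *ErbB2* *Ets2* null array was the low one and the other arrays differed by less than 1. The adaptors *Spry2*, *Spred1* and *Spred2* and the ETS factor *Etv5* lay at 0.06, 0.39, 0.53 and 0.39. Of 18 measured ETS factors, none passed 1 in either direction and the range was -0.53 (*Etv6*) to 0.39, with *Ets1*, the closest relative of *Ets2*, at 8.40, 8.33, 8.39 and 7.83 (-0.50).

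Among AP-1 and other immediate early factors, 4 of 16 (25%) were below -1, none was above 1, and the median was -0.32. *Fos* was at 8.41, 8.72, 9.28 and 7.43 (-2.16, 4.47-fold), *Maff* at 9.06, 9.74, 9.29 and 8.22 (-1.74), *Atf3* at 7.05, 7.23, 8.25 and 6.70 (-1.73) and *Srf*, the serum response factor, at 8.41, 8.67, 9.02 and 7.74 (-1.54). *Fosl1* was at -0.83. *Jun* and *Junb*, partners of Fos, and the Fos family member *Fosl2* were nearer 0, at -0.29, 0.06 and 0.27, and *Egr1* and *Jund* were highest, at 0.72 and 0.61.

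Among the matrix metalloproteinases, secreted enzymes that cut matrix proteins, 6 of 14 (42.9%) were below -1 and 1 (*Mmp11*, 1.09) was above 1, while the median was -0.08. *Mmp12*, macrophage elastase, was at 10.46, 10.37, 11.61 and 7.87 (-3.65, 12.6-fold). The collagenase *Mmp13* was at 5.42, 5.56, 8.44 and 5.79 (-2.79), so 1 array carried it. *Mmp3*, stromelysin, was at 9.87, 8.02, 12.26 and 8.29 (-2.12, 4.36-fold), the 1 counted gene that was lower by over 1 without *Ets2* in both kinds of fibroblast. *Mmp8*, *Mmp9* and *Mmp10*, at -1.55, -1.42 and -1.18, reached log2 6 on 1 or 2 arrays. With values below log2 6 set to 6, *Mmp9* was at -0.15, while *Mmp13* stayed at -2.44. Over the 9 metalloproteinases with all 4 arrays at log2 6 or more the median was -0.001. The gelatinase *Mmp2* and the membrane-type *Mmp14*, abundant on every array, were at 0.04 and 0.65.

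The promoters of *Mmp3*, *Mmp12* and *Mmp13*, which lie together on chromosome 9, are shown because these are the counted metalloproteinases and AP-1 and ETS elements have long been described in this family. They come from RefSeq (GRCm38.p6) and run from 250 bases before to 50 bases after the start. Capitals mark TGACTCA, the AP-1 motif, and AGGAAG, an ETS motif, on either strand. The AP-1 motif begins 46 bases before the start in *Mmp3*, 44 in *Mmp12* and 35 in *Mmp13*.
Mmp3, chr9:7445572-7445871 (+): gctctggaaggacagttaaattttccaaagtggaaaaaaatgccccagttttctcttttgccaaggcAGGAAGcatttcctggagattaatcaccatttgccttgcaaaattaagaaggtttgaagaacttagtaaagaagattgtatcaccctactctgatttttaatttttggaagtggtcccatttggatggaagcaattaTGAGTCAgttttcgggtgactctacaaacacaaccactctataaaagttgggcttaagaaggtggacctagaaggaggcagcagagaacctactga
Mmp12, chr9:7347124-7347423 (+): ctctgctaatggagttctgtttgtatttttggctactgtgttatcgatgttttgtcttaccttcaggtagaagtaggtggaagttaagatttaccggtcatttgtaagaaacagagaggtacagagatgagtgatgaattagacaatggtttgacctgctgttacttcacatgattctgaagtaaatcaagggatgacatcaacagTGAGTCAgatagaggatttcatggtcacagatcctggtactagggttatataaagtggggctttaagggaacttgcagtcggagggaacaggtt
Mmp13, chr9:7272264-7272563 (+): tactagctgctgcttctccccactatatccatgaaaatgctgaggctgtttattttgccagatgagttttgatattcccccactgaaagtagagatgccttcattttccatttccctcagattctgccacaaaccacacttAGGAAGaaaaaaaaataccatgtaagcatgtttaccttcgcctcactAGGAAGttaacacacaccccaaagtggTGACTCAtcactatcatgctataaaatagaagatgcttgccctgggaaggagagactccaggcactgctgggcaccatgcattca
The other annotated start of *Mmp12* holds no TGACTCA and 1 AGGAAG. Of the 9 metalloproteinase genes with a promoter in the table, 4 (44.4%) held TGACTCA, the last being *Mmp10*, and 5 (55.6%) held AGGAAG. Over all 32851 promoters, each start taken singly, the shares were 5.20% and 35.4%. Of the 84 lower genes with a promoter, 13 (15.5%) held TGACTCA and 37 (44.0%) AGGAAG, and of the 18 higher genes with a promoter, 2 and 4. Over the 8837 member genes with a promoter, counted by gene as the metalloproteinase, lower and higher genes were, the shares were 4.57% and 37.0%. A gene with several starts was taken to hold a motif where any of them did, and a match is a description of the letters and not of binding.

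Macrophage and myeloid genes were lower without *Ets2* in the *ErbB2* comparison, and lower by less in the normal one, where 31 of 41 were below 0. Of these markers, 28 (68.3%) were below -1 and 1 was above 1, and the median was -1.44, made up of a median *Ets2* effect of -1.59 in *ErbB2* and -0.24 in normal fibroblasts. The median level of the list was 7.70, 7.40, 8.78 and 7.18. *Cd68*, a lysosomal protein of macrophages, was at 8.67, 8.70, 10.56 and 8.21 (-2.37), *Ctss*, cathepsin S, at 10.22, 9.94, 11.49 and 8.99 (-2.22), and the chemokine *Pf4* at 6.62, 7.16, 8.94 and 6.27 (-3.21). The *ErbB2* *Ets2* present array was the high one. All 7 myeloid markers among the 106 lower genes moved in *ErbB2* fibroblasts alone. The defining genes *Csf1r*, *Ptprc* and *Adgre1* were at -1.56, -1.52 and -0.28, while the complement subunit *C1qa* was at 8.38, 6.61, 9.49 and 8.99 (1.27). *Mmp12* is also on this list, and the part of myeloid cells in the differences of *Mmp12*, *Cd36* and the acute-phase genes was not tested. *Cd36*, a scavenger receptor that takes up fatty acids and binds thrombospondin, was at 8.45, 8.64, 10.61 and 6.88 (-3.92, 15.1-fold). Its 3 member probe sets lay between -3.98 and -3.30.

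Acute-phase and antimicrobial secreted proteins were all below 0. Of the 12 genes that reached log2 6 on an array, 8 (66.7%) were below -1, and the median was -1.60. Over the 6 with all 4 arrays at log2 6 or more it was -1.28, and with no level filter -0.60. *Lcn2*, an iron-binding protein, was at 3.50, 3.61, 7.18 and 3.67 (-3.62), and the whey acidic protein family member *Wfdc18* at 5.27, 5.94, 8.37 and 5.61 (-3.43), above log2 6 on 1 array each. *Slpi*, an inhibitor of neutrophil elastase, was instead high on 3 arrays and low on the *ErbB2* *Ets2* null array, at 10.26, 10.60, 11.19 and 8.61 (-2.91). *Saa3*, serum amyloid A, was at 8.49, 8.06, 10.23 and 8.0 (-1.81). Chemokines were mixed, with 6 of 21 (28.6%) below -1 and a median of -0.14, and *Ccl3* at 6.74, 7.10, 7.46 and 5.63 (-2.19).

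Retinoid genes went both ways. Retinoic acid is made from vitamin A by aldehyde dehydrogenases and acts through nuclear receptors. Of 15 genes, 8 (53.3%) were below -1 and 2 (13.3%) above 1, and the median was -1.23. With no level filter it was -0.19. It was -0.71 both with all 4 arrays at log2 6 and without probe sets whose names end in _x_at or _s_at. The synthesis enzyme *Aldh1a1* was at 8.77, 10.43, 8.78 and 7.18 (-3.26, 9.55-fold), and its close relative *Aldh1a7* at 5.41, 7.82, 5.56 and 5.34 (-2.64), high on the normal *Ets2* null array alone. *Aldh1a2*, the main synthesis enzyme of many mesenchymal tissues, ran the other way, at 6.45, 5.72, 4.63 and 6.79 (2.89). With values below log2 6 set to 6, *Aldh1a2* was at 1.24 and *Aldh1a7* at -1.82, so part of each size lies below log2 6. *Rdh10*, which makes the aldehyde substrate, was at 7.08, 7.73, 7.99 and 7.02 (-1.61). The receptor *Rarb* was at 6.16, 6.86, 6.34 and 5.41 (-1.62) and the degrading enzyme *Cyp26b1* at 6.36, 7.45, 6.56 and 5.99 (-1.66). The receptors *Rara*, *Rarg* and *Rxra* lay at -0.02, 0.41 and 0.21. The carrier *Rbp4* was at -2.33 and the binding proteins *Crabp1* and *Crabp2* at -1.23 and 1.31.

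Genes of cholesterol and fatty acid synthesis were higher. Both sets are controlled by the SREBP factors, which are released when membrane sterols are low. Of 20 cholesterol genes, 8 (40.0%) were above 1, none was below -1, and 19 were above 0, beside 1.55% above 1 among all genes. The median of 0.77 was made up of an *Ets2* effect of 0.90 in *ErbB2* fibroblasts and -0.02 in normal fibroblasts. All 20 were at log2 6 or more on every array. Among the enzymes in their order in the pathway, *Hmgcs1* was at 10.95, 10.80, 10.73 and 11.71 (1.13), *Mvd* at 7.77, 7.49, 7.10 and 8.50 (1.68), *Fdps* at 11.26, 11.12, 11.03 and 11.97 (1.08) and *Fdft1* at 9.07, 8.85, 8.57 and 9.79 (1.45). *Lss*, lanosterol synthase, was at 8.95, 8.75, 8.12 and 9.54 (1.62), *Cyp51* at 9.50, 9.51, 9.05 and 10.33 (1.26) and *Dhcr7* at 8.36, 7.81, 7.88 and 8.57 (1.25). For most of these the *ErbB2* *Ets2* null array was the highest and the *ErbB2* *Ets2* present array the lowest, with the normal arrays between them. The sterol sensor *Insig1* was at 1.24, *Ebp* at -0.01 and *Hsd17b7* at 0.01.

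Of 14 fatty acid genes, 7 (50%) were above 1, none was below -1, and the median was 1.02. *Scd2*, a desaturase that makes oleate, was at 11.72, 10.64, 10.34 and 12.21 (2.96, 7.76-fold), and its 2 other probe sets were at 3.13 and 3.20. *Scd1* was at 9.96, 9.52, 9.48 and 10.60 (1.56), *Acss2*, which makes acetyl-CoA, at 6.24, 6.41, 5.58 and 7.17 (1.42), and *Elovl6* at 7.73, 7.84, 6.65 and 8.16 (1.39). The *Ets2* effect on *Scd2* was -1.08 in normal and 1.87 in *ErbB2* fibroblasts. *Srebf1* was at 1.05, *Srebf2* at 0.50, *Fasn* at 0.83, and *Me1* was lowest at -0.43. The bacterial hybridisation controls were also lowest on the *ErbB2* *Ets2* present array, with a difference of differences of 0.76, and their part in these differences was not tested. Adipocyte genes did not follow, with a median of -0.22, and *Pparg*, the regulator of fat cell formation, was at 7.74, 9.53, 9.20 and 8.53 (-2.46).

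The promoter of *Hmgcs1* is shown because it was the 1 gene of the 16 cholesterol genes with a promoter in the table that held TCACNCCAC, a sterol regulatory element, in capitals below. The motif was in 1.44% of the 8837 member genes with a promoter, counted by gene, and in 1.24% of all promoters taken singly.
Hmgcs1, chr13:119690101-119690400 (+): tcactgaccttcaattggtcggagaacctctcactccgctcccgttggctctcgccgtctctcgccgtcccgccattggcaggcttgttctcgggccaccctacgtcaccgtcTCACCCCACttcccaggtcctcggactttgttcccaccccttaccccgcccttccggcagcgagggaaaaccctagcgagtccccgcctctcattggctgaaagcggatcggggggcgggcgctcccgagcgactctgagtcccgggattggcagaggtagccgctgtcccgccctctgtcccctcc

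**Figure D4:**
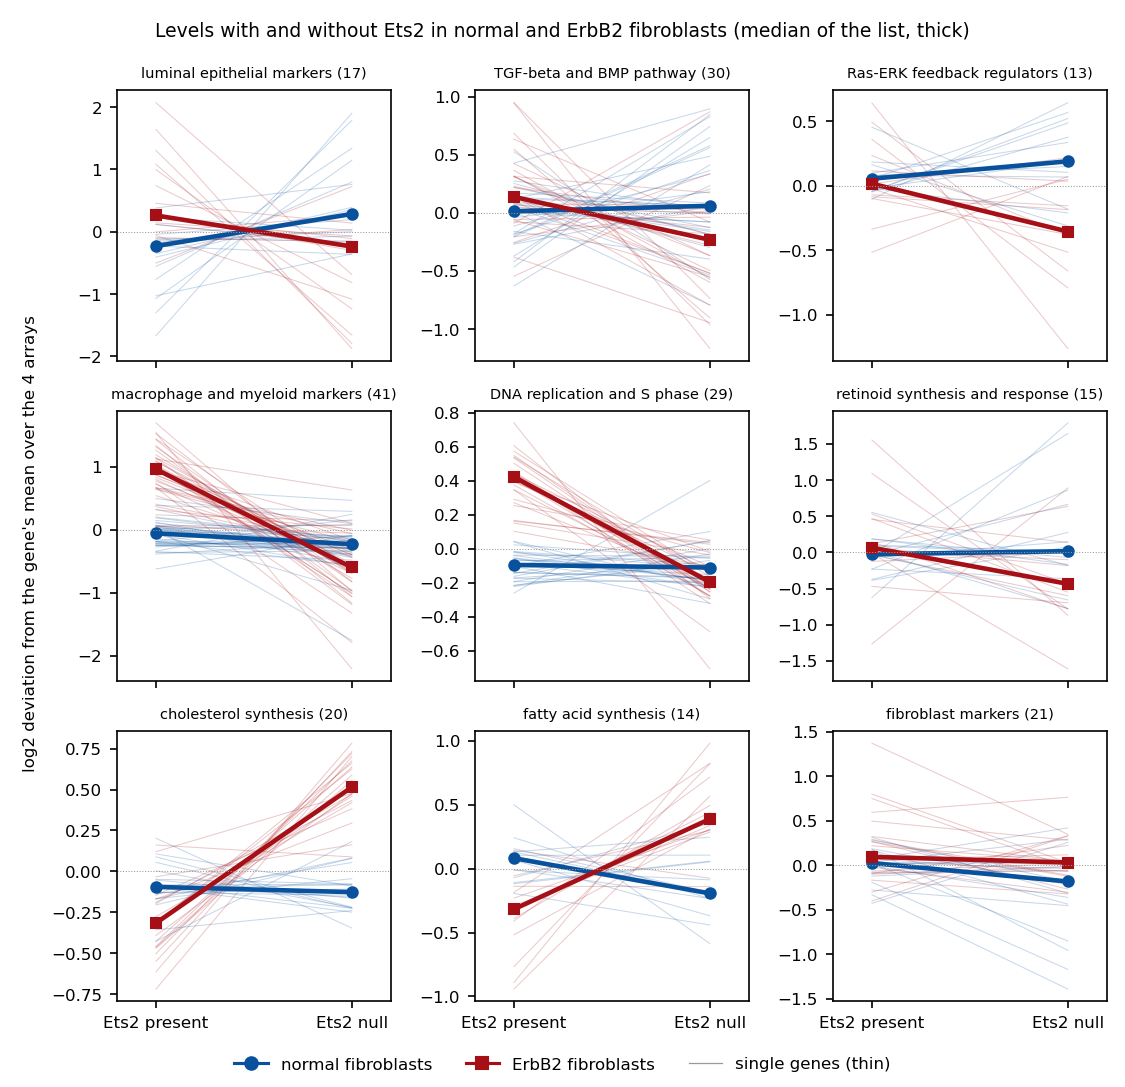
Median over each list (thick lines) and single genes (thin lines) of the log2 deviation from the gene's mean over the 4 arrays (y axis, scales differ between panels), with and without *Ets2* (x axis), in normal (blue) and *ErbB2* fibroblasts (red), 1 array per genotype and the number of genes in parentheses. The lines cross for luminal markers, the red line falls more steeply than the blue for myeloid genes (0.96 to -0.60 against -0.06 to -0.23) and for S phase genes (0.42 to -0.20 against -0.10 to -0.11), and it rises for cholesterol genes, from -0.32 to 0.51.

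*Ccn3*, a matricellular protein that restrains growth, had the highest difference of differences, 5.37 (41.3-fold), at 8.90, 6.47, 7.30 and 10.24, and its other probe set was at 5.31. It was the opposite of the keratins, high on the normal *Ets2* present and *ErbB2* *Ets2* null arrays. *Cyp7b1*, an oxysterol hydroxylase, was at 7.87, 6.06, 8.08 and 9.50 (3.23, 9.36-fold). The Wnt antagonist *Dkk2* was at 7.21, 6.33, 4.90 and 7.23 (3.21). In *Dkk2* and in *Olr1*, a receptor for oxidized lipoprotein, at 5.40, 5.58, 3.24 and 6.03 (2.61), the *ErbB2* *Ets2* present array alone stood apart, on the low side. *Il33*, an alarmin cytokine, was at 5.15, 4.05, 4.76 and 6.68 (3.01). *Vcam1*, an adhesion molecule for leukocytes, was at 8.74, 7.88, 7.82 and 9.11 (2.15, 4.43-fold), and the short-chain collagen *Col8a1* at 9.82, 9.14, 8.90 and 10.35 (2.13). *Gt(ROSA)26Sor* was at 3.09, 3.35, 2.95 and 6.23 (3.01). It is the locus of a reporter that a subset of the study's mice carried, and reporter and genotype cannot be told apart on these arrays. With values below log2 6 set to 6, *Il33*, *Gt(ROSA)26Sor* and *Olr1* were at 0.68, 0.23 and 0.03, so their sizes lie mostly below log2 6.

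Some of the higher genes were carried by normal fibroblasts. *Lgi2*, a secreted leucine-rich protein, was at 7.90, 5.88, 8.23 and 8.71 (2.50), and *Medag*, a gene of fat cell formation, at 8.32, 6.09, 8.01 and 8.18 (2.39), both low on the normal *Ets2* null array alone. The stress genes *Ndrg1*, at 8.44, 6.85, 7.61 and 8.50 (2.48, 5.58-fold), *Ddit4*, at 10.22, 8.95, 9.36 and 10.17 (2.09), and *Ddit3*, at 10.14, 8.96, 9.80 and 10.67 (2.06), had their lowest value there too. Of 27 hypoxia and glycolysis genes, 3 (11.1%) were above 1, none was below -1, and the median was 0.26. The list of endoplasmic reticulum and amino acid stress, which holds *Ddit3*, had a median of 0.01, with 2 of 25 above 1 and 1 below -1.

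Genes of DNA replication shifted together by a small amount. All 29 S phase genes were below 0, with a median of -0.51, but 2 (6.90%), *Rrm2* at -1.49 and *Ccne2* at -1.36, passed -1. The median *Ets2* effect was -0.65 in *ErbB2* and -0.03 in normal fibroblasts, and the *ErbB2* *Ets2* present array was the high one, as for *Mcm6*, a replicative helicase subunit, at 9.57, 9.54, 10.26 and 9.47 (-0.76). None of 31 mitosis genes passed 1, with a median of -0.26. Ribosomal proteins had a median of 0.15 and lay between -0.25 and 0.38.

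Fibroblast markers did not shift as a list. Of 21, 2 (9.52%) were above 1 and 1 (4.76%) below -1, and the median was 0.09. *Fap*, a protease of activated fibroblasts, was at 6.83, 5.85, 7.62 and 7.79 (1.15), *Pdgfra*, a growth factor receptor, at 10.36, 9.95, 9.87 and 10.50 (1.04), and *S100a4*, whose promoter drives Cre, at 13.73, 14.08, 13.49 and 13.34 (-0.51). Of 48 structural matrix genes, 4 were above 1 and 5 below -1, with a median of 0.04. Contractile genes were lower, with 6 of 16 smooth muscle, pericyte and myofibroblast markers (37.5%) below -1 and a median of -0.72, and 8 of 18 skeletal muscle markers (44.4%) below -1 and a median of -0.69. The skeletal muscle markers had a median *Ets2* effect of -0.80 in normal and -1.80 in *ErbB2* fibroblasts, and 14 of 18 were lower in normal fibroblasts. For 6 of them all 4 arrays were at log2 6 or more, with a median difference of differences of -0.51. *Acta1*, skeletal actin, was instead the 1 marker of this list higher by over 1 without *Ets2* in normal fibroblasts. It was at 10.34, 11.89, 10.59 and 9.37 (-2.77). Endothelial markers had a median difference of differences of 0.22 with none of 18 below -1. Their median *Ets2* effect was -0.69 in normal and -0.45 in *ErbB2* fibroblasts, and 17 of 18 were lower without *Ets2* in each comparison. Lymphocyte markers, 6 measured, had a median difference of differences of 0.02.

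Vessel and growth factor genes were carried by a few members. Of 29 angiogenic genes, 7 (24.1%) were below -1 and 1 above 1, with a median of -0.15. *Vegfc*, a lymphatic growth factor, was at 8.01, 8.83, 8.89 and 6.98 (-2.72), and *Ntn4*, a laminin-related guidance protein, at 7.43, 7.93, 7.94 and 5.44 (-3.01), low on the *ErbB2* *Ets2* null array alone. *Wnt4* was at 8.52, 9.16, 9.76 and 7.97 (-2.44) in a Wnt list with 3 of 20 members above 1 and 3 below -1. *Igfbp3* was at 7.78, 6.45, 7.76 and 8.28 (1.85), and *Igf1* at 9.95, 10.18, 9.13 and 10.38 (1.01), in a list of 10 with none below -1. *S100a3*, a calcium-binding protein high in both *Ets2* null arrays, differed by 1.02 between comparisons, at 6.38, 9.83, 5.21 and 9.68, and was below log2 6 on the *ErbB2* *Ets2* present array. The serpins *Serpinb1a* and *Serpinb6b* were at 5.67, 4.76, 5.82 and 6.76 (1.85) and at 6.78, 7.65, 6.31 and 6.46 (-0.72). *Lcp1*, an actin-bundling protein of leukocytes, was at 7.70, 7.59, 9.08 and 7.20 (-1.77), and the basophil protease *Mcpt8* was below log2 6 on every array.

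The lists not yet described lay between the lists above. Medians were -0.56 for Nrf2 antioxidant targets (2 of 15 below -1), -0.37 for lysosomal cathepsins (2 of 15, *Ctsh* and *Ctss*), -0.29 for mast cell and basophil markers (2 of 5), -0.26 for other matrix proteases and inhibitors (5 of 26 below -1 and 2 above 1) and -0.22 for stromal cytokines (5 of 15 below -1 and *Il33* above 1). They were -0.18 for complement (4 of 15 below -1), -0.17 for MHC class II (1 of 4), -0.14 for S100 genes (*S100a3* above 1), -0.14 for ErbB receptors and EGF-family ligands (2 of 5), -0.04 for interferon-stimulated genes (*Gbp2*, -1.79) and 0.05 for CCN and matricellular proteins (2 of 15 on each side).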

How the data were processed

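Second-passage mammary fibroblasts of 4 genotypes were hybridised to Affymetrix mouse genome arrays, 1 array each. The authors deposited log2 expression values made with RMA, which corrects background, quantile-normalizes the arrays and summarises each probe set. Software and version: not given in the sources used here. Because RMA equalises the distributions of the arrays, a shift common to most genes is lost.

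Probe sets took their names from the platform annotation, in which 34958 had 1 symbol, 932 several and 9211 were unnamed here. Genes were counted on the member probe set with the highest mean, by a size of 2 on the log2 scale in place of a test, since the number of arrays limits the precision. Named genes were *Ets2*, the study's primer list, the 15 highest and 15 lowest genes, the 5 at each end with all arrays at log2 6 or more, in each list the 3 members of largest size, and genes over 2 in size in both comparisons. Further list members named beside them were picked with their values in view. The members and lists were chosen with earlier results of these data known. Promoters were taken from RefSeq (GRCm38.p6), whose build need not be that of the probe design. Calculations used pandas 2.3.3 and numpy 2.4.6 under Python 3.11.15, the lowess alternative with statsmodels 0.14.6 and figures with matplotlib 3.10.9. The subtraction and the count by size were tried on simulated data with a known shift added to 1 array. This checks the code of those steps only and not the spread between cultures. The *PyMT* arrays, endothelial cells and human data were not analysed here.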

Additional observations from a re-analysis of the deposited data

Results flagged for a closer look

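The *Ets2* effect was over 2 in size in both kinds of fibroblast, in opposite directions, for 8 genes on their brightest probe sets, and the difference was not tested, since each genotype had 1 array. The differences of differences were -7.09 for *Krt18*, -6.18 for *Krt8*, -6.06 for *Krt14*, -5.32 for *Clu*, -4.93 for *Serpinb2*, -4.84 for *Cd24a* and -4.51 for *Dsp*, all higher without *Ets2* in normal and lower without it in *ErbB2* fibroblasts, and 5.37 for *Ccn3*, which went the other way. The normal change of *Serpinb2* and the *ErbB2* change of *Dsp* lie below log2 6, and with values below log2 6 set to 6 the differences of differences of these genes were -0.11 and -0.64.

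A probe set left out because it carries several symbols, those of the prolactin family genes *Prl2c2*, *Prl2c3* and *Prl2c4* and a predicted gene, was at log2 8.30, 12.40, 9.37 and 6.41, a difference of differences of -7.06. It was highest on the normal *Ets2* null array. Among 2305 probe sets without a single symbol that reached log2 6, 17 were below -2 and 1 was above 2. The bacterial hybridisation controls, which are no gene of the mouse, had a median difference of differences of 0.76 and were lowest on the *ErbB2* *Ets2* present array.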

How the results depend on the processing

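No paired analysis was possible because each genotype had 1 array and the labels carry no replicate numbers, and for the same reason no array could be left out. No direction of a named gene over 2 in size or of a list median over 0.35 in size turned under any alternative. Counts moved by over 1.5 times with the size and with the strictest level filter. At a size of 1 there were 170 genes higher and 531 lower (266 and 905 probe sets), at a size of 3 there were 5 and 29 (9 and 47), and with all 4 arrays at log2 6 there were 15 and 61 (21 and 92), against 24 and 106 (35 and 169). Median centring, quantile normalization, a lowess correction, log2 7 on 1 array and no level filter kept the counts within that range. So did values below 6 set to 6, averaging of probe sets and leaving out probe sets whose names end in _x_at or _s_at. Leaving out markers of cells other than fibroblasts, chosen after seeing the data, did so too (24 and 84). Quantile normalization moved the median of all genes to 0.08.

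List medians that moved by over 0.35 did so mostly with the level filter. With none they were -0.36 for CCN proteins, -0.60 for acute-phase proteins, -0.19 for retinoid genes, -0.51 and -0.79 for luminal and basal markers and -0.25 for skeletal muscle. With log2 7 on 1 array they were 0.59 for CCN proteins, -0.68 for cytokines, -0.67 for ErbB ligands, -1.61 for retinoid genes, -2.22 for MHC class II and -2.46 for mast cells. The MHC class II and mast cell values are those of single genes, the cathepsin *Ctss* (-2.22) and *Tpsab1* (-2.46). The MHC class II genes *H2-Eb1* and *Cd74*, below log2 7 on every array, were at -0.27 and 0.73. With all 4 arrays at log2 6 they were 0.64, -0.67, -0.71, -1.24 and -1.16 for CCN proteins, ErbB ligands, retinoid genes, MHC class II and mast cells, and -0.74 for basal markers, which were at -0.67 with low values set to 6. With all 4 arrays at log2 6, the MHC class II and mast cell medians rest on 2 genes each. Without the _x_at and _s_at probe sets ErbB ligands were at -0.67, retinoid genes at -0.71 and mast cells at -0.83. As means in place of medians, metalloproteinases were at -0.76, chemokines -0.50, cytokines -0.60, angiogenic genes -0.55, ErbB ligands -0.79, retinoid genes -0.77, complement -0.71, luminal markers -1.92, adipocyte genes -0.65 and mast cells -0.65. The causes were not tested. Dropping markers of other cells moved no pathway list that far. Among named genes over 2 in size, 20 recomputed values fell to 2 or less, 12 of them with values below log2 6 set to 6. These 20 are no measure of stability beside the 1094 recomputed values. Many named genes were below 2 in size from the start, and the level filters mostly leave a value unchanged. Of the 130 named genes, 86 remained with all 4 arrays at log2 6.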
